A study of Mus musculus with 2 samples.

Results

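The cells described here are striatal Ebf1 and Isl1 neurons of the embryonic mouse forebrain, 253 cells out of 16348 that passed the filters on depth and mitochondrial content. They were selected on their own raw counts of unique molecular identifiers (UMIs), each of which stands for 1 captured mRNA molecule. A member had at least 2 UMIs of Ebf1, at least 1 UMI of Isl1 and at least 2 UMIs summed over Gad1, Gad2, Dlx1 and Dlx6os1. It had no UMI of Lhx6, Drd2, Top2a, Cldn5 or Rgs5, which mark medial ganglionic eminence interneurons, indirect-pathway neurons, dividing cells, endothelial cells and mural cells. The levels of these genes are therefore given as a description, without a test.

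The striatum is built mainly from GABAergic projection neurons that leave the lateral ganglionic eminence. They divide into a direct pathway, whose neurons use the dopamine receptor Drd1 and the peptide precursor Tac1, and an indirect pathway, whose neurons use the receptor Drd2 and the peptide precursor Penk. The helix-loop-helix factor Ebf1 and the LIM-homeodomain factor Isl1 are known from the developing direct pathway, and the zinc-finger factor Sp9 and the homeodomain factor Six3 from the indirect pathway.

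The series was designed around loss of the histone methyltransferase gene Dot1l in cells with Emx1-Cre at embryonic day 16.5. Both libraries analysed here are wild-type (WT) embryos of that day, named WT replicate 1 and WT replicate 6, and no knockout library was analysed here. The labels call the tissue brain hemispheres and the dissected piece the dorsal telencephalon, which borders the striatum, and how much striatum each library took in is not stated. Nothing in the labels says how many embryos a library holds, and p-values measure only the spread between these 2 libraries.

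Members made up 130 of 8139 passing cells in WT replicate 1, or 1.60% (95% Wilson interval 1.35 to 1.89), and 123 of 8209 in WT replicate 6, or 1.5% (1.26 to 1.78). The mean was 1.55% ± 0.0699 (SD, n = 2), and the intervals cover counting error only. Among passing Gad and Dlx cells without Top2a, Cldn5 and Rgs5, members formed 5.64% and 5.50%. Their median depth was 6172 and 5764 UMIs, and their summed counts came to 889446 and 872914 UMIs. For comparison, 153 cells had at least 1 UMI each of Drd2 and Six3 and met the Gad and Dlx condition (71 and 82 cells, median 7322 and 6013.5 UMIs). They had no UMI of Lhx6, Top2a, Cldn5 or Rgs5. No condition was set on their Ebf1 or Isl1, and they held 3 and 118 Ebf1 UMIs and 2 and 9 Isl1 UMIs. A broader comparison took 4290 other Gad and Dlx cells (2176 and 2114 cells, median 4696 and 4284 UMIs), which include the Drd2 and Six3 cells. All 16095 other passing cells formed the widest comparison. Levels are given in CPM, the share of a gene in all UMIs of the cells of a class in 1 library, scaled to 1000000 UMIs.

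Most members were far from the Ebf1 threshold. The median member held 38 Ebf1 UMIs in WT replicate 1 (2 to 157) and 34 in WT replicate 6 (2 to 215), while its median Isl1 count was only 2 and 3. Ebf1 alone did not define the class, since 774 and 660 passing cells reached 2 Ebf1 UMIs. Requiring Isl1 left 195 and 181 of them, and requiring Gad and Dlx transcripts left 161 and 160. The condition on Top2a removed 17 and 18 of these, that on Lhx6 removed 11 and 9, and that on Drd2 removed 4 and 6, some of them for more than 1 gene. Just inside the threshold, with 2 or 3 Ebf1 UMIs, lay 9 and 6 members, and just outside it, with 1 Ebf1 UMI, lay 10 and 12 cells. Without any Ebf1 UMI, 174 and 163 cells met every other condition. Members with a single Isl1 UMI numbered 49 and 35, and a further 93 and 81 cells met every other condition with no Isl1 UMI, at 2938 and 2879 CPM of Ebf1.

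The label also rests on 3 genes outside the rule. They were chosen with earlier results of these data known, so their levels are a description and not an independent check. Rarb, a retinoic acid receptor of striatal neurons, stood at 688 and 828 CPM, Zfp521, a zinc-finger partner of EBF proteins, at 607 and 568 CPM, and Col25a1, a membrane-bound collagen of neurons, at 171 and 223 CPM. At least 1 of these 3 transcripts was seen in 91.5% and 86.2% of members, against 73.2% and 64.6% of Drd2 and Six3 cells and 31.3% and 29.8% of other Gad and Dlx cells, and 11 and 17 members had none. All 3 were seen together in 29 and 26 members and in 0 and 1 Drd2 and Six3 cells. To set detection apart from depth, each cell was thinned to 1500 UMIs. Rarb was then detected in 53.8% and 52.8% of members, 36.6% and 32.9% of Drd2 and Six3 cells, 11.3% and 10.8% of other Gad and Dlx cells and 1.08% and 1.90% of microglia. Microglia, cells with at least 3 UMIs summed over C1qa, C1qb and C1qc, should lack the gene and were the deeper cells (median 8748 and 7082 UMIs), so their share marks the level of free RNA. Without thinning the Rarb shares were 73.8% and 68.3% in members and 4.30% and 7.62% in microglia. The markers overlapped in the same cells without being uniform. Rarb and Zfp521 were seen together in 71 and 62 members, while 15 and 19 members had neither.

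Marker sums of other cell types ranged widely in members. Erythroid markers summed to 1923 and 2180 CPM, against 3260 and 1943 CPM in Drd2 and Six3 cells. The 5 caudal ganglionic eminence interneuron markers summed to 836 and 780 CPM, against 261 and 262 CPM in Drd2 and Six3 cells, and Adarb2 alone gave 802 and 739 CPM of it in members. The defining markers of cholinergic neurons, which also use Isl1, were low in every class, so a low sum does not set members apart. Their 7 genes summed to 15.7 and 3.44 CPM in members and 1.87 and 3.33 CPM in Drd2 and Six3 cells. Other Gad and Dlx cells had 38.6 and 21.2 CPM. In members, Slc18a3, Slc5a7 and Gbx2 were among those at 0 in both libraries. Nkx2-1, a medial ganglionic eminence factor, was at 0 in both. The 5 endothelial markers summed to 5.62 and 1.15 CPM, and the 5 mural markers to 6.75 and 12.6 CPM. The excitatory neuron markers summed to 472 and 628 CPM, against 465 and 757 CPM in Drd2 and Six3 cells. Neurod6 among them was detected after thinning in 13.1% and 10.6% of members and in 10.8% and 8.57% of microglia, and without thinning in 36.2% and 24.4% of members and 29% and 26.7% of microglia. The 5 fibroblast markers summed to 97.8 and 118 CPM, against 3.73 and 1.67 CPM in Drd2 and Six3 cells. That signal sat in very few members. Of 87 fibroblast UMIs in WT replicate 1, 83 lay in 3 cells, and of 103 in WT replicate 6, 101 lay in 3 cells. Scores against simulated doublets placed 11 and 16 members among the 920 and 857 passing cells with the highest scores, and these members were kept. The libraries shared 59 barcodes, 1 of them a member's.

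The first comparison asked how members differ from the other striatal class. Against Drd2 and Six3 cells, edgeR's quasi-likelihood test called 278 of 8417 genes at an adjusted p under 0.05, or 3.30% (139 higher and 139 lower in members, 1.65% each). With the library as a block the count was 442, and all 278 genes were among them. DESeq2 called 181, and without the filter on low counts 49 were called over 18180 tested. The calls of Ikzf1, Foxp2, Zfp521, Grik2, Ptprm, Sp9, Sox2, Adora2a, Pde4b and Six3os1 were lost in no alternative run that tested the gene. Members were higher in Ikzf1, Zfp521, Foxp2 and Col25a1, and lower in Ptprm, Sp9, Sox2 and Adora2a. The pan-striatal factors Bcl11b and Meis2 were not called, which does not show that their levels are equal. The plot of mean levels in both classes shows these genes on either side of the diagonal.

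**Figure D1:**
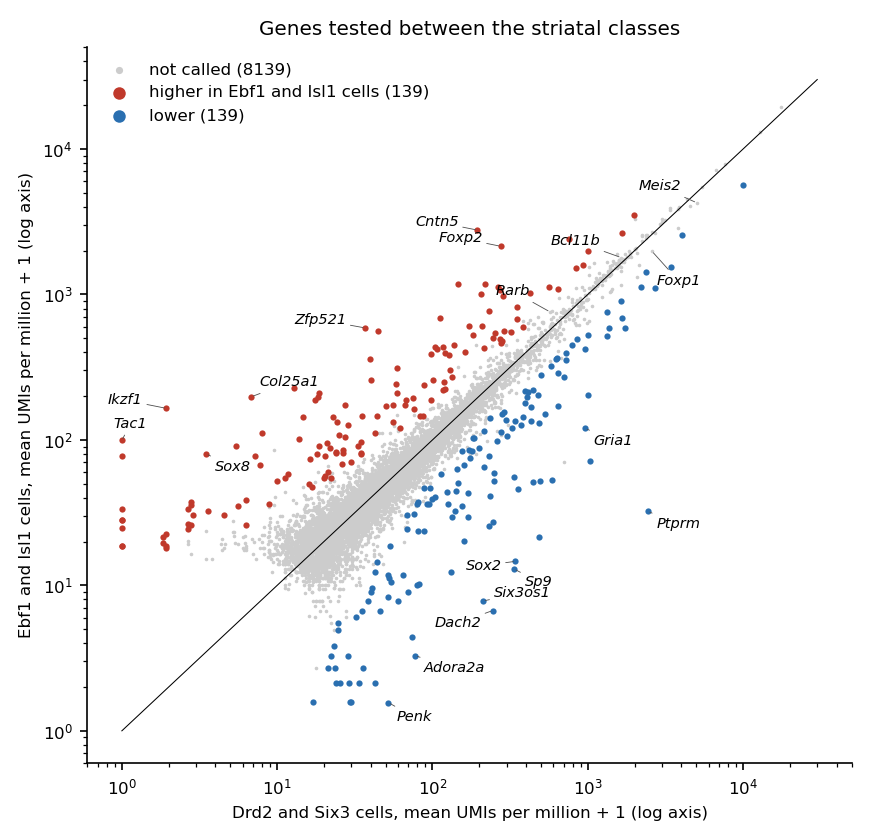
Mean level of each of 8417 tested genes in Drd2 and Six3 cells (x axis) and in Ebf1 and Isl1 cells (y axis), as CPM plus 1 on log axes, over 2 libraries. Red points are the 139 genes called higher in members, blue points the 139 called lower, grey points the rest, and the line marks equal levels. Ikzf1, Tac1, Zfp521 and Foxp2 lie far above the line and Ptprm, Sp9 and Sox2 far below it.

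Of the 12 genes shared by striatal projection neurons, 2 were called higher, 3 lower and 7 were not called, and the median log2 difference was -0.04 against 0.0029 over all genes. Ikzf1, the Ikaros zinc-finger factor, had 189 and 139 CPM in members and 1.87 and 0 CPM in Drd2 and Six3 cells. The libraries of members lay far above both comparison libraries. Only 1 UMI was seen in the comparison cells, which gives a count ratio of 186 (95% exact interval 33.2 to 7381, edgeR adjusted p = 0.000134). This and the later exact intervals pool the UMIs of both libraries and cover counting error only, without the spread between cells or libraries. Foxp2, a forkhead factor, had 2190 and 2095 CPM against 316 and 232 CPM (log2 2.98, SE 0.18, adjusted p = 4.09e-05). It was detected after thinning in 80.8% and 78.0% of members, 21.1% and 15.9% of Drd2 and Six3 cells and 4.30% and 8.57% of microglia. Bcl11b, a zinc-finger factor of striatal maturation, had 1744 and 1841 CPM against 1596 and 1675 CPM (log2 0.15, SE 0.119, adjusted p = 0.759). Rarb had 688 and 828 CPM against 586 and 552 CPM. That difference of 0.43 (SE 0.152, adjusted p = 0.269) had the same sign in both libraries but did not pass. Foxp1, at 1926 and 2031 CPM against 3057 and 2121 CPM (log2 -0.38, SE 0.173), did not pass either. Meis2, a homeodomain factor, had 4299 and 4244 CPM against 5396 and 4636 CPM (log2 -0.22, adjusted p = 0.546), and the retinoid receptor gene Rxrg had 63.0 and 76.8 CPM against 37.3 and 31.7 CPM (log2 1.03, adjusted p = 0.0634). Both were called with the library as a block, at adjusted p = 0.0414 and 0.033. Zswim6 (log2 -1.01, SE 0.182) and Arpp21 (log2 -0.94, SE 0.164) were among the lower members of the list. The call of Arpp21 was lost in 6 alternatives, DESeq2 among them.

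Ikzf1 is also a gene of microglia, where it reached 233 and 219 CPM. The complement genes that define microglia were nearly absent from members, with C1qa at 0 and 3 UMIs, C1qb at 1 and 14 and C1qc at 0 and 1. The 6 listed microglial markers summed to 105 and 88.2 CPM in members, against 16.8 and 18.3 CPM in Drd2 and Six3 cells. P2ry12 gave 92.2 and 61.9 CPM of the sum in members and was called higher in all 3 comparisons. The source of the Ikzf1 UMIs was not tested. Members held 168 and 121 Ikzf1 UMIs, spread over 41 and 24 cells, and the fullest cell had 11 and 17 of them. Rarb was seen in 38 of those 41 cells and 22 of those 24, beside 96 of 130 and 84 of 123 among all members. These counts were not thinned to equal depth.

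Direct-pathway genes outside the rule were sparse at this age. Of 10 such genes, 2 belong to the rule and 6 fell under the filter on low counts, and both tested genes, Tac1 and Zfp521, were called higher. Zfp521 is also a label marker, chosen with earlier results of these data known. Zfp521 had 607 and 568 CPM against 44.8 and 26.7 CPM (log2 4.06, SE 0.238, adjusted p = 4.09e-05). Tac1, the precursor of substance P, had 36.0 and 160 CPM and no UMI in Drd2 and Six3 cells. Against the floor of 3 counts over that group it was at least 36.9-fold higher (adjusted p = 0.0358). Its UMIs came from 5 and 8 members, and a single cell held 12 of 32 in WT replicate 1 and 78 of 140 in WT replicate 6. Members with 2 to 9 Ebf1 UMIs had 83.5 and 700 CPM of Tac1. Those with 10 to 29 had 19.4 and 232 CPM, and those with 30 or more had 28.8 and 7.06 CPM. Drd1 had 7 UMIs in each library (7.87 and 8.02 CPM, in 5 and 5 members), Pdyn had 2 in each, and Chrm4, a muscarinic receptor of direct-pathway neurons, had 0. For Chrm4 this count allows up to 3 UMIs in each sum. Ppp1r1b, which encodes DARPP-32 of mature striatal neurons, had 2.25 and 0 CPM.

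Indirect-pathway genes ran the other way. All 4 tested genes of that list were called lower, while Drd2 and Six3 chose the comparison cells and were not tested. The absence of Drd2 was also a condition of membership, so this list is not independent of the rules. Sp9 had 8.99 and 14.9 CPM in members and 319 and 350 CPM in Drd2 and Six3 cells (log2 -4.78, SE 0.228, adjusted p = 1.69e-05). Its level in members was close to that in microglia, at 11.1 and 22.6 CPM. Adora2a, the adenosine receptor of indirect-pathway neurons, had 1.12 and 3.44 CPM against 78.4 and 75 CPM (log2 -4.96, SE 0.420). Penk had a single UMI in members and 56 in the comparison cells, a count ratio of 86.9 (95% exact interval 15.0 to 3493; adjusted p = 0.0172). Its level in the comparison cells differed between libraries, at 82.2 and 20 CPM. The kainate receptor subunit Grik3 had 31.5 and 69.9 CPM against 450 and 437 CPM (log2 -3.11, SE 0.282).

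**Figure D2:**
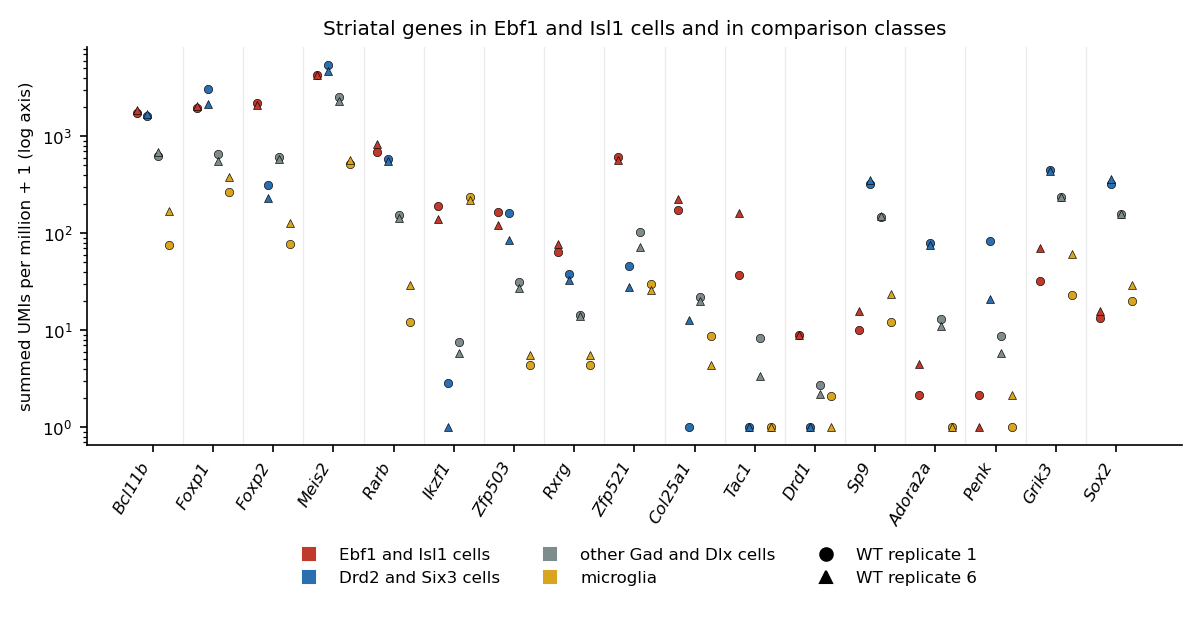
Level of 17 striatal genes in 4 cell classes, as CPM plus 1 on a log axis, with 1 circle (WT replicate 1) and 1 triangle (WT replicate 6) per class. Bcl11b and Meis2 lie close together in both striatal classes, Foxp2, Zfp521 and Col25a1 are highest in Ebf1 and Isl1 cells, Ikzf1 is high there and in microglia, and Sp9, Adora2a, Penk and Grik3 are highest in Drd2 and Six3 cells.

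Ptprm, a receptor-type tyrosine phosphatase of cell contacts, fell from 2386 and 2488 CPM in Drd2 and Six3 cells to 25.9 and 36.7 CPM in members (log2 -6.26, SE 0.196, adjusted p = 1.2e-06). Sox2, a factor of neural progenitors, had 12.4 and 14.9 CPM in members and 319 and 363 CPM in Drd2 and Six3 cells (log2 -4.62, SE 0.207). Of 4 tested progenitor markers, 1 was called higher and 1 lower. The higher was Vim, at 78.7 and 79.0 CPM against 33.6 and 33.3 CPM (log2 1.25, SE 0.222), a call lost in 7 alternatives. Dach2, a transcription cofactor, had 2.25 and 9.16 CPM against 157 and 328 CPM. Sox8, an SRY-related factor, rose to 64.1 and 93.9 CPM from 3 UMIs in the comparison cells, all in WT replicate 6. That gave a count ratio of 29.9 (95% exact interval 10.0 to 147, edgeR adjusted p = 0.00173). Col25a1 had 7 UMIs in Drd2 and Six3 cells, all in WT replicate 6, and 347 in members (log2 4.98, SE 0.481). DESeq2 did not make this call.

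Some of the largest changes lie at a shared locus. Gm12158, with 136 UMIs in members and 0 in Drd2 and Six3 cells, lies inside Ebf1 on the opposite strand, and Six3os1 overlaps Six3, so neither is independent of the rule. Gm9984 and 1700016K05Rik lie inside Ptprm on the opposite strand, and P2ry12 lies inside Med12l in the same way. Ebf1 spans 11:44618100-45008096, Ptprm 17:66666848-67354491 and Med12l 3:59005419-59318446 in GRCm38. Penk and Sox2 overlap annotated noncoding genes, and Nefl overlaps Nefm. Whether counting kept the strands apart was not stated in the sources used here, so reads of overlapping genes cannot be told apart. P2ry12, a purinergic receptor listed as a microglial marker, was called higher at 92.2 and 61.9 CPM against 7.47 and 5 CPM (adjusted p = 0.00155). Med12l, chosen after its values were seen, had 329 and 383 CPM against 35.5 and 41.7 CPM.

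Fibrillar collagens and Dcn were called higher as well, but on few cells. All 4 tested fibroblast markers were called, among them Dcn at 20.2 and 27.5 CPM and Col3a1 at 28.1 and 44.7 CPM. Dcn was seen in 2 and 3 members, with 17 of 18 and 19 of 24 UMIs in a single cell. With every cell holding a fibroblast marker UMI left out, an alternative added after the data were seen, 257 genes were called and 250 of the 278 were among them. Cped1, among the largest rises at 29.2 and 25.2 CPM, was seen in 2 members of each library. Tmem132c was seen in 6 and 3 members, with 29 of 31 UMIs of WT replicate 6 in a single cell, whereas Dock5 was spread over 16 and 10 members.

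Receptor and guidance genes moved in both directions. Among AMPA, kainate and NMDA receptor subunits, 3 of 11 tested were called higher and 2 lower. Gria1, an AMPA receptor subunit, had 70.8 and 167 CPM in members and 915 and 1010 CPM in Drd2 and Six3 cells (log2 -3.0, SE 0.317, adjusted p = 0.000896). Grik2, a kainate receptor subunit, had 948 and 1301 CPM against 224 and 298 CPM (log2 2.12, SE 0.201, adjusted p = 0.000484), and Gria4 was 1.73 higher on the log2 scale (SE 0.240). Among axon guidance genes, 3 of 25 tested were called higher and 4 lower, while DESeq2 called 2 of the list. Dcc, the netrin receptor, had 3078 and 3942 CPM against 1623 and 2313 CPM (log2 0.85, SE 0.176), and Ephb1, an Eph receptor, had 627 and 716 CPM against 383 and 318 CPM (log2 0.95, SE 0.165). Unc5d, a netrin receptor of the Unc5 family, had 417 and 427 CPM against 1089 and 827 CPM (log2 -1.17, SE 0.172). In each library 3 members held much of it, 246 of 371 and 182 of 373 UMIs. Its call was lost in 2 alternatives, the one against cells with Drd2 or Six3 among them. Plxna4, a semaphorin receptor subunit, differed by -0.86 (SE 0.150). The calls of Dcc and Plxna4 were among those that DESeq2 did not make. The other calls of the list, named after their values were seen, were Robo2 (higher), Robo1 and Epha5 (lower).

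**Figure D3:**
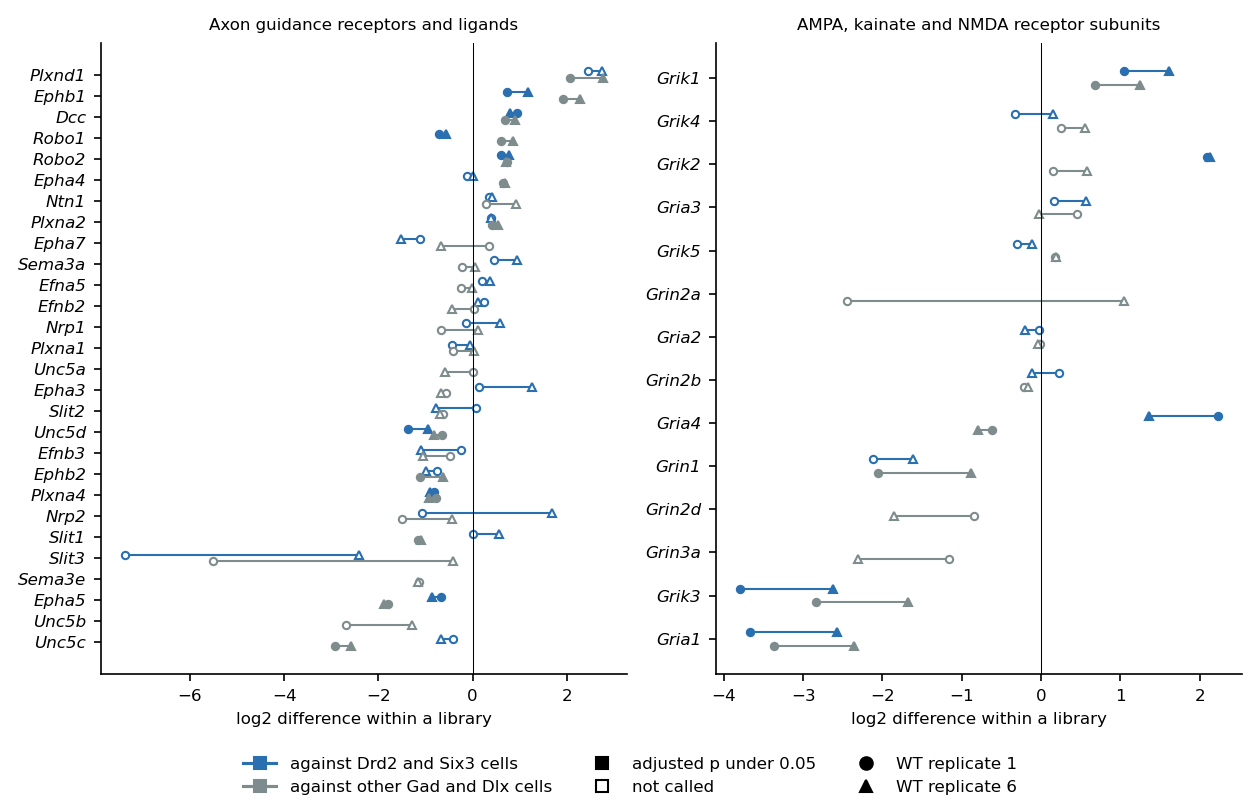
Log2 difference between Ebf1 and Isl1 cells and Drd2 and Six3 cells (blue) or other Gad and Dlx cells (grey) within each library, for tested genes of the axon guidance and glutamate receptor lists. Circles are WT replicate 1, triangles WT replicate 6, and filled symbols mark an adjusted p under 0.05. Gria1 and Grik3 lie left of 0 in both comparisons and in both libraries. Slit3 lies far apart between libraries and was not called.

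In the striatal dopamine and cAMP list, 1 of 9 tested genes was called higher and 3 lower. Pde4b, a cAMP phosphodiesterase, had 181 and 221 CPM against 1126 and 882 CPM (log2 -2.31, SE 0.186), and Gnal, the olfactory-type G protein subunit, had 57.3 and 66.4 CPM against 140 and 145 CPM (log2 -1.19, SE 0.178). Gng7 was lower too, at 8.99 and 4.58 CPM against 52.3 and 65.0 CPM. Prkcb, a protein kinase C gene, was 1.56 higher (SE 0.308). DESeq2 called 2 genes of this list, and the calls of Prkcb and Gnal were each lost in 4 alternatives, DESeq2 among them. Retinoic acid genes gave 2 calls among 7 tested. Aldh1a3, a retinoic acid-synthesising enzyme, had 30 UMIs against 1, from 6 and 5 members, and turned to -0.58 against cells with Drd2 or Six3. Markers of neuronal maturation included 3 higher genes among 12 tested. The neurofilament gene Nefl had 49.5 and 83.6 CPM against 1.87 and 11.7 CPM, Stmn2 differed by 0.87 (SE 0.153) and Gap43 by 0.79 (SE 0.158).

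No LIM-homeodomain gene or cofactor outside the rule was called by edgeR among 6 tested, where 2 had an unadjusted p under 0.05, DESeq2 called 0 and edgeR with the library as a block called 2. Lmo4, a LIM-only protein that competes for the same cofactors, had 431 and 294 CPM against 741 and 600 CPM (log2 -0.87, SE 0.213, adjusted p = 0.0732). The cofactor gene Ldb1 had 59.6 and 66.4 CPM against 67.2 and 76.7 CPM. Other EBF genes were near the floor in members, with Ebf2 at 1.12 and 4.58 CPM and Ebf3 at 0 and 2.29 CPM. Of the GABA synthesis and transport genes outside the rule, 4 were tested and edgeR called 0, with 1 at an unadjusted p under 0.05 and 0 called by DESeq2.

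The second comparison set members against all other Gad and Dlx cells. There 740 of 14002 genes were called, or 5.28% (336 higher, 2.40%, and 404 lower, 2.89%). With the library as a block, 1191 genes were called and all 740 were among them. Members were again higher in Ikzf1, Sox8, Col25a1 and Zfp521, and now also in the pan-striatal factors. They were lower in genes of medial and caudal ganglionic eminence interneurons. All 3 comparisons share the member sums, so their values are given side by side and not as independent evidence.

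Of the 12 shared striatal genes, 9 were called higher, and the median log2 difference was 1.70 against -0.02 over all genes. Rarb rose to 688 and 828 CPM from 151 and 141 CPM (log2 2.42, SE 0.119, adjusted p = 0.000255), and Bcl11b to 1744 and 1841 CPM from 626 and 686 CPM (log2 1.5, SE 0.0879). Foxp1, a forkhead factor, differed by 1.75 (SE 0.115), Foxp2 by 1.90 (SE 0.0892) and Meis2 by 0.86 (SE 0.0850). The retinoid receptor gene Rxrg had 63.0 and 76.8 CPM against 13.2 and 13.1 CPM, and the zinc-finger factor Zfp503 had 164 and 119 CPM against 30.2 and 26.4 CPM. Arpp21 and Mn1 were not called, nor was Zswim6 (log2 -0.56), which was called lower with the block (adjusted p = 0.00441). Drd1 passed here, at 7.87 and 8.02 CPM against 1.72 and 1.20 CPM (log2 2.46, SE 0.475, adjusted p = 0.0368), on 14 UMIs in members. The mu opioid receptor gene Oprm1, a striosome gene, had 141 and 79.0 CPM against 26.5 and 30.6 CPM (log2 1.99, SE 0.245). Of 4 tested striosome genes, 2 were called higher. Of 4 tested genes of the striatal matrix, 2 were called higher and 1 lower, so neither compartment stood out.

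All 6 tested markers of medial ganglionic eminence interneurons and all 5 of caudal ganglionic eminence interneurons were lower in members. The absence of Lhx6 was a condition of membership, so the first group is not independent of the rule. Erbb4, a neuregulin receptor of migrating interneurons, had 302 and 121 CPM against 4874 and 5189 CPM (log2 -4.52, SE 0.386, adjusted p = 0.0015). Maf, an interneuron factor, had 6.75 and 3.44 CPM against 134 and 129 CPM, and Prox1, a caudal eminence factor, had 5.62 and 2.29 CPM against 50.1 and 47.8 CPM. Nxph1, a neurexin ligand, had 28.1 and 2.29 CPM against 952 and 1115 CPM (log2 -6.03, SE 0.498). Adarb2, also listed for the caudal eminence, had 802 and 739 CPM in members against 1575 and 1590 CPM, yet was 1.75 higher (SE 0.166) than in Drd2 and Six3 cells. Of 15 tested Dlx and lateral eminence factors, 7 were lower and Meis2 was higher. Dlx2 had 10.1 and 19.5 CPM against 85.7 and 84.8 CPM.

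Guidance genes gave 7 higher and 6 lower calls among 28 tested against the other Gad and Dlx cells. Unc5c, a netrin receptor, had 29.2 and 33.2 CPM against 231 and 208 CPM (log2 -2.77, SE 0.138), and Epha5 differed by -1.85 (SE 0.100). Ephb1 was 2.10 higher (SE 0.113). Plxnd1, the receptor of Sema3e, had 14.6 and 16.0 CPM against 3.68 and 2.48 CPM (log2 2.34, SE 0.384). The neurofilament genes Nefl and Nefm were 2.64 (SE 0.282) and 1.51 (SE 0.150) higher. Among the largest rises, Dgkk, a diacylglycerol kinase gene, had 31.5 and 27.5 CPM against 1.65 and 0.683 CPM, and Cntn5, an adhesion molecule of the contactin family, had 2405 and 3130 CPM against 242 and 264 CPM (log2 3.5, SE 0.144). Globin transcripts were lower in members, with Hbb-bs at 979 and 1108 CPM against 3605 and 5313 CPM. The comparison cells were shallower, and the part of free erythroid RNA in this difference was not tested.

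Against all other passing cells, 2253 of 17971 genes were called, or 12.5% (872 higher, 4.85%, and 1381 lower, 7.68%). The largest rises were Tac1, Gm12158, Dgkk, Gm14133, Ikzf1, Stra6l, Col25a1, Cntn5, Rarb and Zfp503. Rarb stood at 54.5 and 47.3 CPM in the other cells (log2 3.93, SE 0.135, adjusted p = 0.000117), against a median of -0.11 over all genes. Of the 12 shared striatal genes, 9 were called higher, and Arpp21 was lower at 189 and 234 CPM against 336 and 370 CPM. Among the largest falls, Mrc1, a receptor of brain macrophages, and Higd1b, a pericyte gene, had no UMI in members and were at least 16.4-fold and 15.9-fold lower against the floor of 3 counts over both member sums. Flt1, an endothelial receptor, had 2 UMIs in members (count ratio 40.7, 95% exact interval 11.3 to 336).

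Cells that met all conditions except the one on Ebf1 differed from members in more than Ebf1. The 174 and 163 Isl1-positive Gad and Dlx cells without an Ebf1 UMI outnumbered the members. Since Ebf1 set the groups and depth affects its count, these values are a description. Ikzf1 had 0 UMIs in the cells without Ebf1 and in those with 1 Ebf1 UMI, 27.8 and 36.1 CPM at 2 to 9 Ebf1 UMIs, 395 and 297 CPM at 10 to 29, and 174 and 117 CPM at 30 or more, so it was highest in the middle group of members in both libraries. Foxp1 stood at 507 and 594 CPM without Ebf1 and at 2273 and 2283 CPM at 30 or more Ebf1 UMIs. Zfp521 stood at 238 and 150 CPM without Ebf1, 174 and 108 CPM at 2 to 9 Ebf1 UMIs, and 737 and 662 CPM in the top group. Foxp2 stood at 928 and 1444 CPM without Ebf1, 585 and 931 CPM at 2 to 9, and 2628 and 2425 CPM in the top group. For both genes, members with 2 to 9 Ebf1 UMIs were thus lower than the cells without Ebf1. Sp9 went from 79.9 and 77.5 CPM to 5.07 and 17.7 CPM, and Erbb4 from 1434 and 1308 CPM to 276 and 54.7 CPM. Bcl11b, at 856 and 1267 CPM without Ebf1, and Meis2, at 2912 and 2458 CPM, were present on both sides of the threshold.

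**Figure D4:**
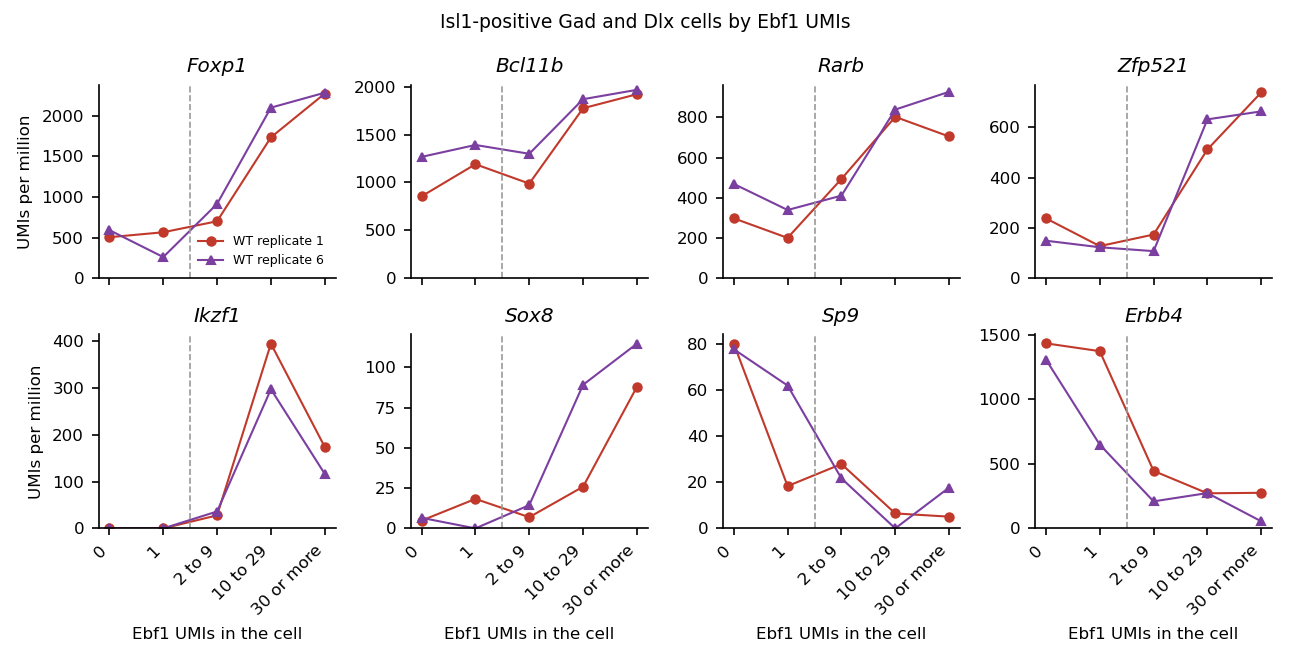
Level of 8 genes in Isl1-positive Gad and Dlx cells grouped by the Ebf1 UMIs of the cell (x axis), as CPM (y axis from 0), for WT replicate 1 (circles) and WT replicate 6 (triangles). Cells right of the dashed line are members. Foxp1, Rarb and Zfp521 are higher at 10 or more Ebf1 UMIs than at 0, while Zfp521 is lower at 2 to 9 than at 0. Ikzf1 is at 0 left of the line, and Sp9 and Erbb4 are highest without Ebf1.

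Members also varied among themselves. After thinning to 1500 UMIs, the median ratio of variance to mean over 4093 genes detected in at least 5% of members of each library was 1.05. The 10 genes with the highest ratio were Dcc, Lsamp, Cntn5, Tenm2, Ebf1, Malat1, Unc5d, Gpc6, Nrxn3 and Nrg1. Several encode adhesion or guidance proteins of growing axons. Dcc had ratios of 11 and 12.8, although it was detected in 73.8% and 72.4% of members, so its level differed widely between cells that had it. Cntn5 had ratios of 8.38 and 7.40 and was detected in 52.3% and 64.2% of members. Unc5d, with ratios of 7.77 and 4.14, was detected in only 11.5% and 9.76%. Ebf1 itself had ratios of 8.01 and 6.84. Slit3, a ligand of Robo receptors chosen after its values were seen, had 3 and 118 UMIs in members of the 2 libraries, and a single cell held 52 of the latter.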

How the data were processed

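The authors counted reads with Cell Ranger 7.0.0 on mm10, per the submitters' processing notes, and deposited raw UMI counts per gene and cell for 14136 and 13046 called cells (74930397 and 68964234 UMIs). Whether intronic reads and strand were counted was not given in the sources used here. Because gene length may affect counts, genes were compared only with themselves between classes. Cells passed at 1500 to 60000 UMIs with less than 10% from mitochondrial genes, and doublets were scored but not removed. The members and the gene lists were chosen with earlier results of these data known.

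UMIs were summed per library and class (2 sums per class) and tested with edgeR 4.0.16 in R 4.3.3: TMM, filterByExpr, the two-sided quasi-likelihood test and adjustment by Benjamini-Hochberg across every tested gene. The 12 genes of the rules stayed in library sizes but were not tested. Same-numbered sums come from the same library, and their deviations correlated at 0.208, 0.103 and 0.158 in the comparisons with Drd2 and Six3 cells, all other cells, and other Gad and Dlx cells. The block for the library was an alternative. Alternatives were DESeq2 1.42.0, other scalings, no low-count filter, other gates, a stricter cell filter, doublets left out, no Neurod2 or Neurod6 UMI, thinning and each library alone. Named genes were the label markers, the 10 largest rises and falls per comparison (20 CPM or more, same sign in both libraries), up to 4 called genes per list, all genes of 3 striatal lists and the 10 most variable genes. Some genes that the rule names are not reported here. Further genes are said to be chosen after their values were seen. On simulated counts for the comparison with Drd2 and Six3 cells (8270 genes), 50 of 50 genes raised 4-fold and 40 of 50 lowered to 0.25-fold were called. Of genes raised 2-fold, 21 of 50 were called, and of genes raised 1.5-fold, 1 of 50. A gene that was not called is therefore not shown to be equal. Promoter sequences were not used here. Gene positions are from RefSeq on GRCm38.p6, and overlaps from GENCODE.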

Additional observations from a re-analysis of the deposited data

How the results depend on the processing

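The share of members was 1.68% with at least 1 Ebf1 UMI, 1.03% with at least 2 Isl1 UMIs and 1.87% under the stricter cell filter, against 1.55%, and 1.5% to 1.60% with either library alone. Against Drd2 and Six3 cells, 181 genes were called by DESeq2, 442 with the library as a replicate block and 49 with no low-count filter, where 18180 genes were tested, against 278. Against other Gad and Dlx cells, 1271 genes were called with doublets left out and 1191 with the block, against 740. Against all other cells, 797 were called after thinning, against 2253. The other alternatives stayed within 1.5 times, and the block changed no other call of a named gene except Pdyn (lost, adjusted p = 0.130) and Eya1 (gained, 0.0359) against all other cells and Adora2a (gained, 0.0404) against other Gad and Dlx cells, beside those given with their results. No count could be had with a library left out, since no replicate remained.

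Of the named calls, 10 of 52, 59 of 75 and 67 of 101 (against Drd2 and Six3 cells, other Gad and Dlx cells and all other cells) held in every alternative run that tested the gene. A missing adjusted p with the same sign counted as held. Named genes not called in the main fits gained calls in alternatives, 8 over 7 genes, 10 over 6 and 9 over 8, in the same order. Without the low-count filter most calls against Drd2 and Six3 cells were lost. Signs turned, on the log2 scale, for Aldh1a3 (-0.58, Drd2 or Six3 comparator) and Vim (-0.37 with the Drd2 comparator, -0.58 with Drd2 or Six3) against Drd2 and Six3 cells. Against other Gad and Dlx cells they turned for Col1a1 (-0.36), Col3a1 (-0.85) and Dcn (-2.52) without Neurod2 or Neurod6 UMIs, and for Col3a1 (-0.52) and Dcn (-1.0) with doublets left out. Against all other cells the sign turned for Arpp21 (1.17) without Neurod2 or Neurod6 UMIs. The cause was not tested.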
